A study of Homo sapiens with 9 samples.

Results

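The 26S proteasome is assembled from products of the PSM genes, and its transcripts were followed here in HCT116 cells, a human colon carcinoma line, after knockdown of RNF40 or of transglutaminase 2. Members were taken by symbol from the deposited table of normalized counts. They are the protein-coding rows on primary chromosomes whose symbol is PSMA to PSMG followed by a number, without PSMB8 and PSMB9, with the row of the highest mean kept for each symbol. The rule gave 46 members of 63677 genes. Of these, 44 had a mean normalized count of at least 10 over the 9 libraries and entered the tests. PSMB11, the thymus-specific beta subunit, had no read in any library, where a count of 0 allows up to 3 reads. PSMA8, the testis-specific alpha subunit, was at 0 except for 3.77 in siTG2 replicate 1.

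Polyadenylated RNA was sequenced 48 h after lipid transfection of small interfering RNA (siRNA) in 3 groups of 3 libraries. Groups are siRNF40, directed at the ubiquitin ligase subunit RNF40, which acts on histone H2B, siTG2, directed at transglutaminase 2 (gene TGM2), and siControl, a control siRNA. All groups share the same line, which the labels give as wild type, and the knockdowns were transient. The series' title concerns the role of transglutaminase 2 in attaching serotonin to glutamine 5 of histone H3 in colorectal cancer.

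The proteasome degrades proteins tagged with ubiquitin. Its core particle, the 20S, is a barrel of outer alpha rings and inner beta rings, and the beta subunits PSMB5, PSMB6 and PSMB7 carry the proteolytic sites. The regulatory particle, the 19S, has a base, with a ring of ATPases (PSMC genes) that unfold substrates, and a lid that removes ubiquitin chains. Dedicated chaperones assist assembly of the rings and of the base, and other regulators (PSME1 to PSME4, PSMF1) can bind the ends of the core in place of the 19S. Because the subunits sit in fixed proportions in the complex, their genes are known to be regulated together, in large part by the transcription factor NFE2L1, whose precursor is itself a substrate of the proteasome.

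Reads assigned to genes numbered 30632268 to 35743918 in siRNF40, 30136581 to 33343878 in siTG2 and 29161285 to 34143599 in siControl, and 1 read equals 0.88 to 1.104 units of normalized count. The knockdowns lowered their targets, with RNF40 in siRNF40 at 18.7% and TGM2 in siTG2 at 18.5% of the siControl mean. In both cases the knockdown libraries lay below all controls, with a two-sided exact permutation p of 0.1, the smallest that 3 against 3 libraries allow. Each target also moved in the other knockdown. RNF40 had 2249, 2506 and 2158 counts in siTG2, below 3004, 2784 and 2565 in siControl, and was called lower there. TGM2 had 839, 830 and 963 counts in siRNF40, above 559, 702 and 554 in siControl, without a call. Of 7 epithelial markers, 6 reached a mean of 10, and their summed level was 136350 to 163970 in siRNF40, 83456 to 94461 in siTG2 and 92202 to 101230 in siControl. Of markers of other cell types, CD3E (T cells), DCN and LUM (fibroblasts) were at 0 in every library. Of the endothelial markers, KDR and VWF averaged 61.1 and 30.8 over the 9 libraries and CDH5 0.723, while PECAM1 is listed at 0 on a patch sequence outside the primary chromosomes, so that its 0 was not read as low expression. COL1A1, also listed as a fibroblast marker, made up most of a summed fibroblast level of 1371 to 1705 in siRNF40, 1017 to 1172 in siTG2 and 822 to 997 in siControl. The epithelial sum was above siControl in every siRNF40 library, and in siTG2 it overlapped the controls toward lower values. It moved in the same direction as the proteasome genes described below, and its part in those results was not tested.

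Most proteasome genes were expressed at a high level in all 3 groups. Per kilobase of transcript, using the length of the GENCODE 29 transcript with the longest coding sequence (45 of 46 members matched, all but PSMB3), the median of 43 expressed members was 1385 normalized counts in siRNF40, 1297 in siTG2 and 1326 in siControl. PSMA7, an alpha subunit, had the highest level per kilobase of all members, at 7107 in siRNF40, 4974 in siTG2 and 5782 in siControl. The beta ring had a median of 3671 counts per kilobase in siRNF40, 2713 in siTG2 and 3244 in siControl over 6 genes. The ATPases had medians of 1323, 1110.0 and 1230.1 per kilobase in siRNF40, siTG2 and siControl.

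Alpha subunits did not stand at equal transcript levels. PSMA2 was at 45.1 counts per kilobase in siRNF40, 65.3 in siTG2 and 63.2 in siControl, and PSMA1 and PSMA6 were at 276 to 477 in the 3 groups. The table holds a second row under the symbols PSMA1 and PSMA2 that overlaps the first on the same strand, and PSMA1 and PSMA6 also overlap COPB1 and KIAA0391 on the same strand. How the counting treated reads in such overlaps is not given in the sources used here, so the low levels of these genes are uncertain. The inducible beta subunit PSMB10 was at 47.2 counts per kilobase in siRNF40, 69.97 in siTG2 and 59.1 in siControl.

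**Figure D1:**
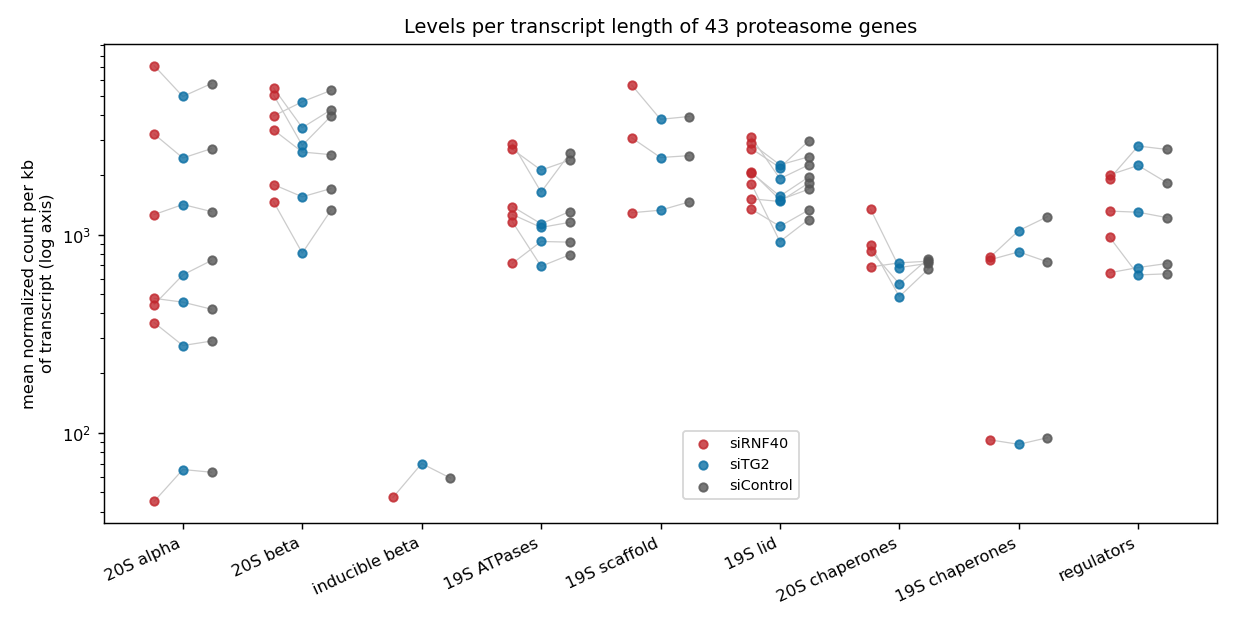
Mean normalized count per kilobase of transcript (log axis) for 43 expressed members, by class, with the same gene joined across siRNF40, siTG2 and siControl. The median lies at 1385 in siRNF40, 1297 in siTG2 and 1326 in siControl, while PSMA2, PSMB10 and PSMD9 lie far below the others, with none above 94.4.

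Setting siRNF40 against siControl asks which proteasome transcripts change when RNF40 is depleted. More members rose than fell, and the changes were small. Of 44 tested members, 16 were called higher in siRNF40 (36.4%, against 21.7% of 17663 tested genes) and 7 lower (15.9%, against 23.6%), where a call is an adjusted p under 0.05 in limma. The split was 22 higher and 6 lower after quantile normalization, and 15 and 9 after scaling to equal totals. Of all tested genes, 23.1% were higher and 22.1% lower after quantile normalization, and 19.8% and 25.2% after scaling to equal totals. Log2 fold changes ran from -0.74 to 0.90, so no member changed 2-fold, with a median of 0.13 against 0.02 over all tested genes. Whether a level changed within cells or the mix of cells in the culture changed cannot be told apart in bulk RNA.

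The comparison of siTG2 with siControl asks the same for transglutaminase 2. Here no member was called higher (0%, against 12.8% of tested genes) and 14 were called lower (31.8%, against 18.5%). Of 44 members, 34 had a negative log2 fold change, and the median was -0.15 against -0.01 over all genes, with a range of -0.72 to 0.28. The split of calls depends on the scaling. With libraries scaled to equal totals, 5 members were called higher and 9 lower, and with quantile normalization 4 and 8. The shares of all tested genes moved too, to 21.9% higher and 10.7% lower under equal totals. Under quantile normalization they were 14.8% higher and 14.8% lower. Scaling to equal totals moved the median of all genes to 0.13, and the median of the members to -0.01, which lies 0.14 below that of all genes as before. Under quantile normalization the difference between the medians of the members and of all genes was -0.06. All siTG2 libraries also stood apart in the number of genes with a read, 27123 to 27602 in siTG2 against 25162 to 25468 in siControl, and the part of this in the siTG2 changes was not tested. Called higher under both scalings were PSME1, PSMD5, PSMA4 and PSME3.

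**Figure D2:**
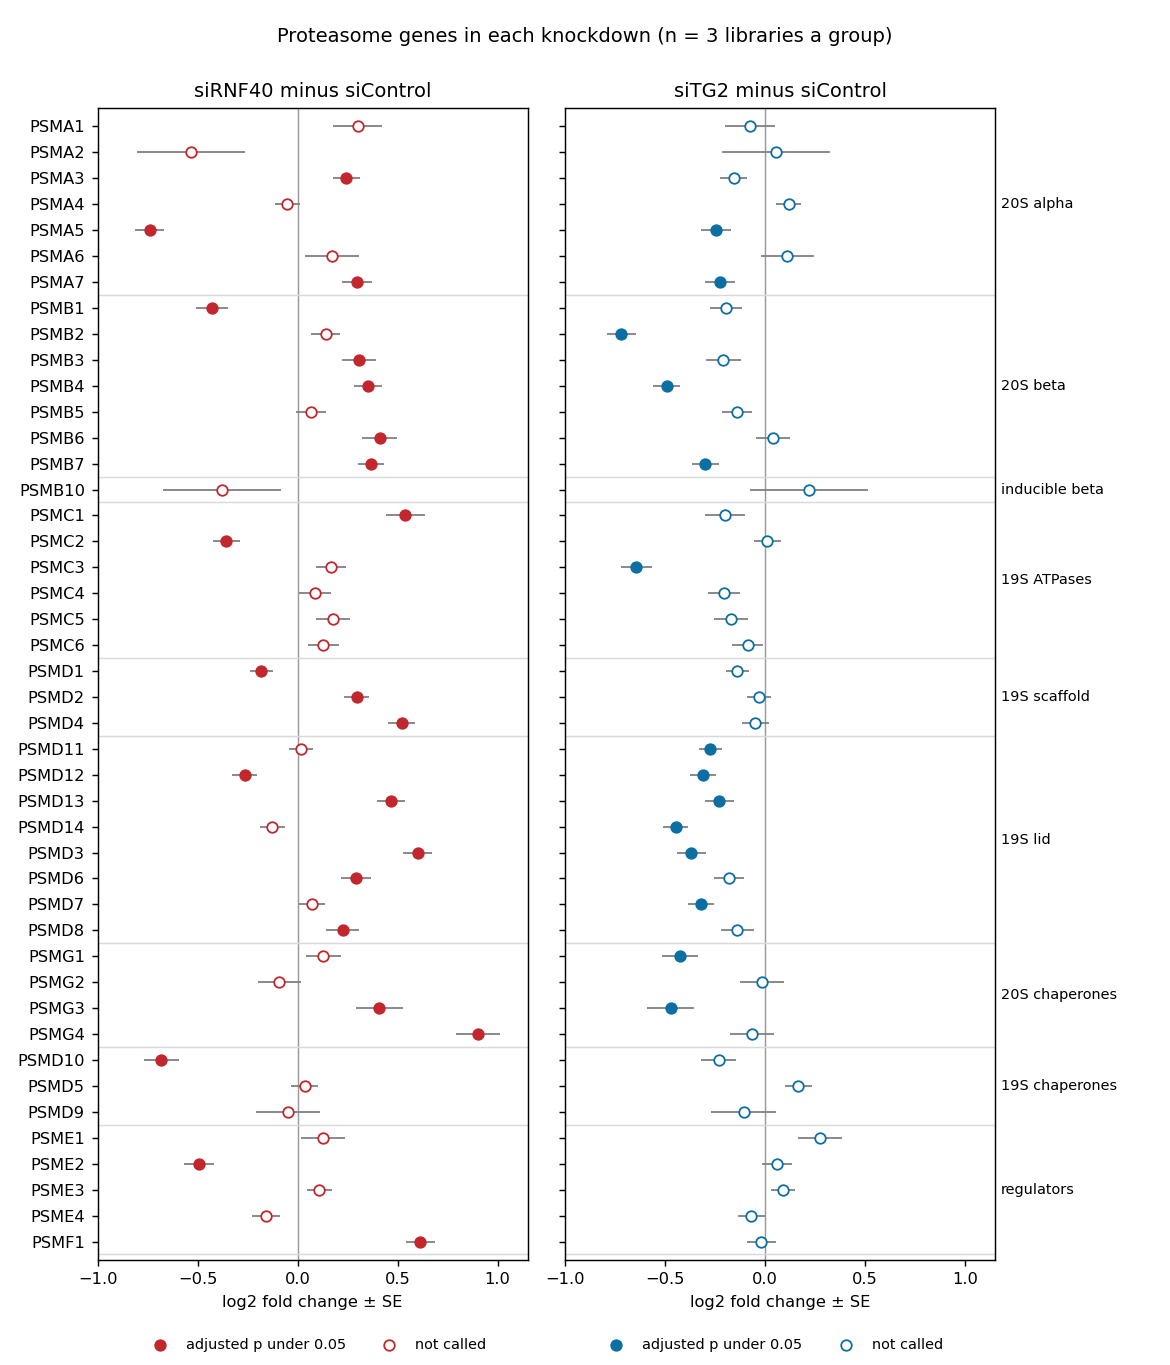
Log2 fold change with SE (horizontal axis) of the 44 tested members, grouped by class, for siRNF40 minus siControl (left) and siTG2 minus siControl (right), with filled points for adjusted p under 0.05. In siRNF40, 16 filled points lie to the right of 0 and 7 to the left, and in siTG2 all 14 filled points lie to the left.

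A direct test of siRNF40 against siTG2 gives the difference between the knockdown effects. It called 27 members higher in siRNF40 (61.4%, against 26.6% of all tested genes) and 6 lower (13.6%, against 26.6%), with a median log2 difference of 0.32 against -0.01 over all genes. After scaling to equal totals the split was 18 higher and 13 lower, with the median of all genes moved to -0.19 and the members' median at 0.15. Of all tested genes, 18.6% were then higher and 35.8% lower. Under quantile normalization the counts were 24 and 8, against 27.1% and 26.5% of all tested genes. Both knockdowns are set against the same siControl libraries, so their effects share that error, whereas this test does not use the controls' levels.

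**Figure D3:**
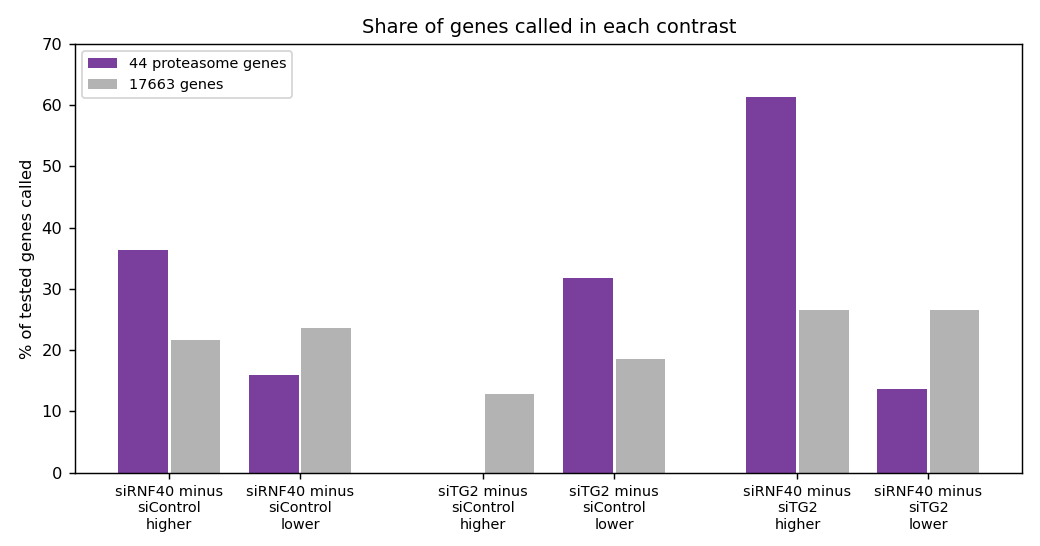
Share of tested genes called higher or lower (percent, vertical axis) in each contrast, for the 44 proteasome genes and for all tested genes. The members exceed the share of all genes with a mean of at least 10 for higher calls in siRNF40 against siControl and siRNF40 against siTG2, and for lower calls in siTG2 against siControl.

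By call, 6 members were higher in siRNF40 and lower in siTG2, each against siControl. They are PSMA7, PSMB4, PSMB7, PSMD3, PSMD13 and PSMG3, spread over the alpha ring, the beta ring, the lid and the 20S chaperones. All 6 were called in the direct test. That follows from how they were chosen, since the direct difference is the siRNF40 effect minus the siTG2 effect. A further 10 were called higher in siRNF40 without a call in siTG2, and 6 lower in siTG2 without a call in siRNF40. All 16 of these were also called higher in the direct test, in which 26.6% of all tested genes were called higher. PSMA5 and PSMD12 were lower in both knockdowns. How many of all tested genes show each of these patterns was not counted, so the pattern counts have no background. Taken singly, 21.7% of all tested genes were higher and 23.6% lower in siRNF40, and 18.5% were lower in siTG2. The siTG2 calls of PSMA7, PSMB7 and PSMD13 were lost under both scalings, with log2 fold changes that stayed negative, while PSMB4, PSMD3 and PSMG3 kept theirs under all 18 alternatives.

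Of the alpha ring, which gates entry to the core, 2 of 7 tested members were higher and 1 lower in siRNF40, and 2 were lower in siTG2. As shares these are 28.6% and 14.3% in siRNF40, against 21.7% and 23.6% of all tested genes. In siTG2 the share is 28.6%, against 18.5%. PSMA7 had 7326, 7096 and 6813 normalized counts in siRNF40, 4277, 5251 and 5335 in siTG2, and 5819, 5829 and 5628 in siControl. The siRNF40 libraries were the highest and the siTG2 libraries the lowest, without overlap between groups. PSMA7 rose by 0.30 in siRNF40 on the log2 scale (SE 0.075, adjusted p = 0.0032) and fell by 0.22 in siTG2 (SE 0.075, adjusted p = 0.029). Without siTG2 replicate 1, the lowest library, its siTG2 log2 fold change was -0.12 (adjusted p = 0.2). The siTG2 call also ended without siControl replicate 1 (-0.22, adjusted p = 0.092), siControl replicate 2 (-0.22, 0.086) or siControl replicate 3 (-0.24, 0.054). PSMA3 was the other alpha gene to rise in siRNF40 (0.24, SE 0.068, adjusted p = 0.0068), with an antisense RNA of similar level, RP11-349A22.5, overlapping it. PSMA1, PSMA2 and PSMA6 were called in neither knockdown, with 0.30 (adjusted p = 0.054), -0.53 (0.12) and 0.17 (0.31) in siRNF40 and -0.08 (0.69), 0.06 (0.91) and 0.11 (0.57) in siTG2. PSMA1 passed in siRNF40 in 5 of 18 alternatives, among them quantile normalization (0.33, adjusted p = 0.036) and without siRNF40 replicate 1 (0.36, 0.046) or replicate 3 (0.35, 0.046). PSMA1 was higher in siRNF40 than in siTG2 in the direct test, by 0.38 (adjusted p = 0.015), a call lost under scaling to equal totals (0.20, adjusted p = 0.18) and without siRNF40 replicate 2 (0.27, adjusted p = 0.085).

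PSMA5, on chromosome 1 from 109941653 to 109969062 (minus strand, build hg19), showed the largest fall of any member in siRNF40. It had 1620.5, 1755 and 1588 counts in siRNF40, 2142, 2445 and 2416 in siTG2, and 2761, 2802 and 2722 in siControl. The siRNF40 libraries were lowest, the siTG2 libraries were between, and no groups overlapped. The log2 fold change was -0.74 in siRNF40 (SE 0.074, adjusted p = 1.7e-07) and -0.24 in siTG2 (SE 0.074, adjusted p = 0.017), and the difference between them was -0.50 (SE 0.074, adjusted p = 1.5e-05). The siTG2 call of PSMA5 ended under both scalings, without siTG2 replicate 1 (-0.18, adjusted p = 0.1), and without siControl replicate 1 (-0.24, 0.054) or siControl replicate 2 (-0.23, 0.06). PSMA4 was called in neither knockdown against siControl but was lower in siRNF40 than in siTG2 (-0.17, SE 0.06, adjusted p = 0.025), a call that was lost without siRNF40 replicate 1 (-0.14, adjusted p = 0.096), siTG2 replicate 2 (-0.15, 0.077) or siTG2 replicate 3 (-0.15, 0.091).

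The beta ring, which holds the proteolytic sites, had 4 of 7 members higher and 1 lower in siRNF40, and 3 of 7 lower in siTG2. These shares are 57.1%, 14.3% and 42.9%, against 21.7%, 23.6% and 18.5% of all tested genes. Among the catalytic genes, PSMB5 (chymotrypsin-like site) had 2353, 2269.7 and 2315 counts in siRNF40, 1864, 2045 and 2112 in siTG2, and 2132, 2371 and 2124 in siControl. Its siRNF40 libraries overlapped the controls, and neither knockdown was called against siControl, with a log2 fold change of 0.07 in siRNF40 (95% interval from -0.09 to 0.22) and of -0.14 in siTG2 (95% interval from -0.29 to 0.02). PSMB6 (caspase-like site) had 3229.8, 2752 and 2641 counts in siRNF40, 1978, 2364 and 2324 in siTG2, and 2237, 2185 and 2047 in siControl. Only its siRNF40 libraries stood apart, all above every other library, with a rise of 0.41 (SE 0.087, adjusted p = 0.00075). PSMB7 (trypsin-like site) had 5433, 5254 and 5441 counts in siRNF40, 3372, 3614 and 3193 in siTG2, and 4111, 4414 and 3996 in siControl. It rose by 0.37 in siRNF40 (SE 0.067, adjusted p = 0.00017) and fell by 0.30 in siTG2 (SE 0.067, adjusted p = 0.0019), with no overlap between groups. In the direct test 26.6% of all tested genes were called higher in siRNF40 than in siTG2. The siRNF40 level was above the siTG2 level for all 3 catalytic genes in that test, by 0.21 (PSMB5, adjusted p = 0.026), 0.37 (PSMB6, 0.0014) and 0.67 (PSMB7, 9.7e-08). PSMB5 lost this call under both scalings and with edgeR, and without siRNF40 replicate 1 (0.19, adjusted p = 0.069) or siTG2 replicate 1 (0.15, 0.13). PSMB6 lost it with libraries scaled to equal totals (0.19, adjusted p = 0.057).

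The structural beta subunits behaved unequally. PSMB4 had 4992, 4968 and 4659 counts in siRNF40, 2507, 2714 and 2927 in siTG2, and 3834, 3902 and 3706 in siControl. It rose by 0.35 in siRNF40 (SE 0.069, adjusted p = 0.00034) and fell by 0.49 in siTG2 (SE 0.069, adjusted p = 2.2e-05), again with 3 separate groups. PSMB2, on chromosome 1 from 36067185 to 36107445 (minus strand), had the largest fall of any member in siTG2. Its counts were 3932, 4229 and 3691 in siRNF40, 2039, 2131 and 2367 in siTG2, and 3521, 3680.4 and 3541 in siControl. The siTG2 libraries were far below all others, a log2 fold change of -0.72 (SE 0.073, adjusted p = 5.1e-07), whereas the siRNF40 libraries lay just above the controls with 0.14 (adjusted p = 0.13), which passed without siRNF40 replicate 3 (0.19, adjusted p = 0.048). PSMB1 went the other way in siRNF40, with 3901, 3482 and 3665 counts in siRNF40, 3797, 4832 and 4397 in siTG2, and 4785, 5257 and 4813 in siControl. It fell by 0.43 in siRNF40 (SE 0.081, adjusted p = 0.00024), and the siTG2 libraries overlapped both other groups. PSMB1 had -0.20 in siTG2 (adjusted p = 0.074), which passed without siTG2 replicate 2 (-0.28, adjusted p = 0.015). PSMB3 rose by 0.31 in siRNF40 (SE 0.087, adjusted p = 0.0073) and had -0.21 in siTG2 (adjusted p = 0.076), which passed the threshold without siTG2 replicate 2 (-0.30, adjusted p = 0.012).

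PSMB10, which replaces PSMB7 in the immunoproteasome of interferon-treated and immune cells, had low counts in all 3 groups, with the same-strand overlap given above. It had 73.4, 35.1 and 64.0 counts in siRNF40, 106, 82.7 and 67.4 in siTG2, and 74.0, 63.6 and 78.5 in siControl. The groups overlapped and no contrast was called. Of the alternatives, siRNF40 against siTG2 passed with equal totals (-0.77, adjusted p = 0.034) and without siRNF40 replicate 1 (-0.81, adjusted p = 0.042). The 95% intervals against siControl ran from -0.999 to 0.24 for siRNF40 and from -0.40 to 0.84 for siTG2. The other immunoproteasome subunits are not members. PSMB9 had 56.1, 67.5 and 58.7 counts in siRNF40, 133, 134 and 126 in siTG2, and 67.4, 100.6 and 81.6 in siControl. PSMB9 was called higher in siTG2 (0.67, SE 0.23, adjusted p = 0.034), not in siRNF40 (-0.43, adjusted p = 0.14), and lower in siRNF40 than in siTG2 (-1.10, adjusted p = 0.0005). PSMB8 lay between 2.07 and 17.0 counts over all libraries and was not tested.

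**Figure D4:**
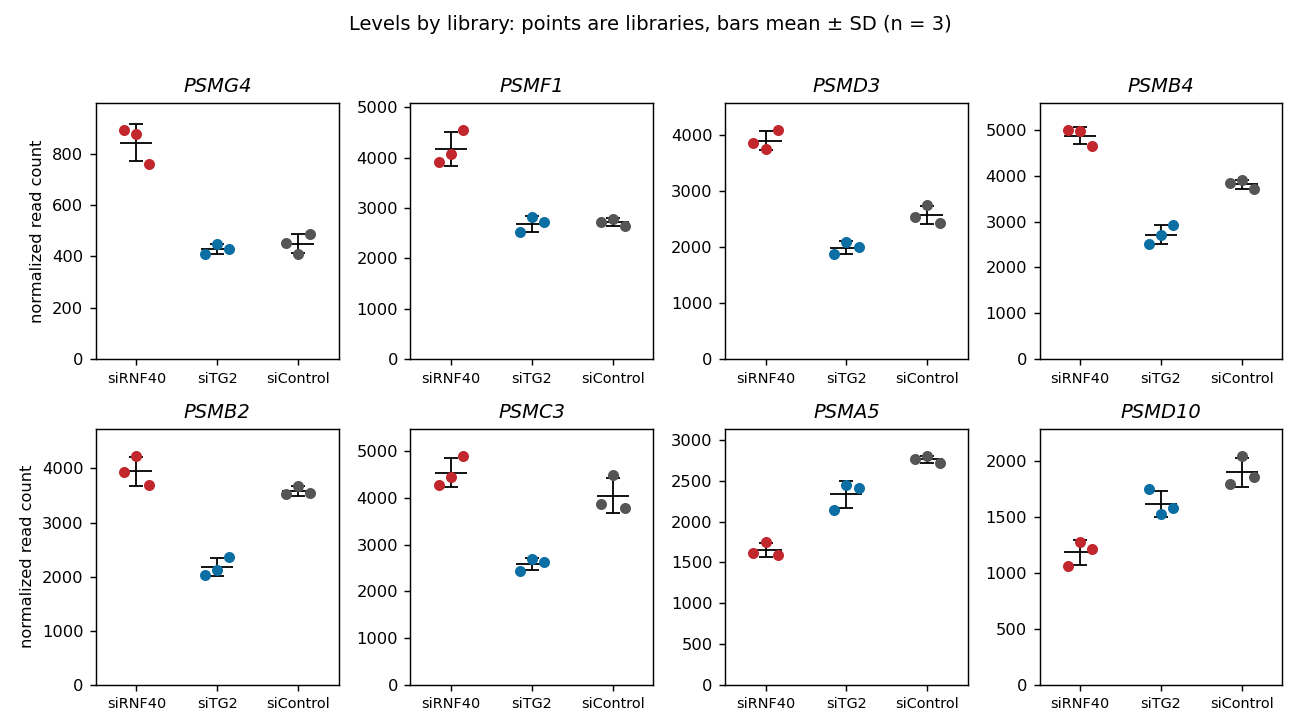
Normalized read counts (vertical axes, from 0) of 8 members in the 3 libraries of siRNF40, siTG2 and siControl, with mean and SD. PSMG4 and PSMF1 are high in siRNF40, PSMB2 and PSMC3 are low in siTG2, PSMD3 and PSMB4 are highest in siRNF40 and lowest in siTG2, and PSMA5 and PSMD10 are lowest in siRNF40.

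Of the 6 ATPases of the 19S base, 1 was higher and 1 lower in siRNF40 and 1 was lower in siTG2. Each is a share of 16.7%, near the 21.7%, 23.6% and 18.5% of all tested genes. PSMC1 (Rpt2 in yeast) had 6097, 4804 and 4558 counts in siRNF40, 2809, 3527 and 2895 in siTG2, and 3468, 3452 and 3635 in siControl. It rose by 0.54 in siRNF40 (SE 0.098, adjusted p = 0.00016), where replicate 1 was the highest library by a wide margin, and the siTG2 libraries overlapped the controls, with a call only without siTG2 replicate 2 (-0.30, adjusted p = 0.024) or with only the 6 libraries compared. PSMC2 (Rpt1 in yeast) had 2063, 2319.6 and 2176 counts in siRNF40, 2809, 2878 and 2769 in siTG2, and 2833, 2877 and 2683 in siControl. Its siRNF40 libraries were below all others (-0.36, SE 0.069, adjusted p = 0.00032), while siTG2 and siControl overlapped. PSMC2 shares its locus with DNAJC2 on the opposite strand, and since whether counting used strand is not given in the sources used here, reads of such pairs may be mixed.

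PSMC3 (Rpt5 in yeast) gave the second fall among members in siTG2, after PSMB2. It had 4280.2, 4464 and 4901 counts in siRNF40, 2441, 2688 and 2638 in siTG2, and 3879.5, 4487 and 3798 in siControl. All siTG2 libraries lay below every other library, a log2 fold change of -0.64 (SE 0.077, adjusted p = 3.3e-06), and the siRNF40 and siControl libraries overlapped (0.17, adjusted p = 0.085). PSMC4, PSMC5 and PSMC6 were called in neither knockdown against siControl, with log2 fold changes of 0.08 to 0.18 in siRNF40 and -0.20 to -0.09 in siTG2. In the direct test 5 of 6 ATPases were higher in siRNF40 than in siTG2 (83.3%, against 26.6% of all tested genes). PSMC2 was lower (16.7%, against 26.6%). Under scaling to equal totals PSMC4, PSMC5 and PSMC6 lost their higher call in this test. PSMC6 lost it in 7 of 18 alternatives, among them quantile normalization (0.16, adjusted p = 0.093) and edgeR. The others were fits without siRNF40 replicate 2 or 3 or siTG2 replicate 2 or 3, with log2 differences of 0.17 to 0.20. Against siControl, quantile normalization called PSMC3 (0.23, adjusted p = 0.024), PSMC5 (0.24, 0.037) and PSMC6 (0.20, 0.0497) higher in siRNF40. PSMC3 was also called higher there without siControl replicate 2 (0.24, 0.024). PSMC4 was called lower in siTG2 without siControl replicate 3 (-0.28, adjusted p = 0.024) or siRNF40 replicate 3 (-0.20, 0.039).

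The base also holds the large scaffold subunits PSMD1 and PSMD2 and the ubiquitin receptor PSMD4. PSMD4 had 7328, 7012 and 8331 counts in siRNF40, 4895, 5343 and 5018 in siTG2, and 5347, 5156 and 5259 in siControl. The siRNF40 libraries were above all others, a rise of 0.52 (SE 0.068, adjusted p = 4.8e-06), and siTG2 overlapped the controls (-0.05, adjusted p = 0.64). PSMD2 rose by 0.30 in siRNF40 (SE 0.062, adjusted p = 0.00062), while PSMD1 fell by 0.18 (SE 0.059, adjusted p = 0.018), a call that ended under quantile normalization (-0.11, adjusted p = 0.13) and without siControl replicate 1 (-0.18, 0.051) or siControl replicate 3 (-0.17, 0.072). None of the 3 was called in siTG2.

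The lid was the class with the most calls in siTG2, where 6 of 8 members were lower (75%, against 18.5% of all tested genes). All 8 had a negative log2 fold change, with a median of -0.29. Of those 6 calls, PSMD11 and PSMD13 ended under scaling to equal totals. Under quantile normalization PSMD11 (-0.10, adjusted p = 0.18), PSMD12 (-0.13, 0.10) and PSMD13 (-0.10, 0.37) lost theirs. In siRNF40, 4 of the 8 were higher (50%, against 21.7%) and 1 lower (12.5%, against 23.6%). PSMD3 (Rpn3 in yeast) is on chromosome 17 from 38137050 to 38154213 (plus strand). It had 3857, 3751 and 4083 counts in siRNF40, 1867, 2092 and 2008 in siTG2, and 2542, 2741 and 2429.6 in siControl. The 3 groups did not overlap, with siRNF40 highest and siTG2 lowest. PSMD3 rose by 0.60 in siRNF40 (SE 0.073, adjusted p = 1.7e-06) and fell by 0.37 in siTG2 (SE 0.073, adjusted p = 0.00067), and the difference between the knockdowns, 0.97 (SE 0.073, adjusted p = 2e-09), was the largest of any member. PSMD13 (Rpn9 in yeast) had 4733, 4843 and 5224 counts in siRNF40, 2844, 3186 and 3108 in siTG2, and 3655, 3765 and 3295 in siControl. It showed the same order of groups, with a rise of 0.47 in siRNF40 (SE 0.072, adjusted p = 3e-05) and a fall of 0.23 in siTG2 (SE 0.072, adjusted p = 0.02), the siTG2 call of PSMD13 being lost without siTG2 replicate 1 (-0.18, adjusted p = 0.1), siControl replicate 1 (-0.21, 0.083) or siControl replicate 2 (-0.19, 0.1).

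PSMD14, the deubiquitinating enzyme of the lid (Rpn11 in yeast), had 5353, 5409.7 and 5159.5 counts in siRNF40, 3987, 4335 and 4439 in siTG2, and 5683, 5839 and 5865 in siControl. The siTG2 libraries were the lowest, with a fall of 0.45 (SE 0.062, adjusted p = 1.9e-05), and the siRNF40 libraries lay below the controls too, with -0.13 (adjusted p = 0.1). PSMD7, its partner in the lid (Rpn8 in yeast), fell by 0.32 in siTG2 (SE 0.064, adjusted p = 0.00076) and PSMD11 by 0.27 (SE 0.058, adjusted p = 0.0014), with no call in siRNF40. PSMD12 was lower in both knockdowns, by 0.27 in siRNF40 (adjusted p = 0.002) and 0.31 in siTG2 (adjusted p = 0.00092), and the direct difference was 0.04 with a 95% interval of -0.09 to 0.18. The siTG2 call of PSMD12 was lost under quantile normalization. PSMD6 and PSMD8 rose in siRNF40 by 0.29 and 0.23 (adjusted p = 0.0037 and 0.032). The PSMD8 call ended with no filter on low values, under scaling to equal totals, and without siRNF40 replicate 1 (0.16, adjusted p = 0.16), siControl replicate 1 (0.21, 0.1) or siControl replicate 3 (0.20, 0.11).

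The chaperones PSMG1 to PSMG4 help build the 20S rings. PSMG4 showed the largest rise of any member in siRNF40. It lies on chromosome 6 from 3231637 to 3303607 (plus strand) and had 891, 876 and 759.9 counts in siRNF40, 409, 448 and 430.05 in siTG2, and 454, 411 and 486 in siControl. The siRNF40 libraries were far above all others, by 0.90 (SE 0.11, adjusted p = 2e-06), and siTG2 and siControl overlapped. PSMG4 overlaps SLC22A23 and TUBB2B on the opposite strand, so reads of these genes may be mixed. PSMG3, the partner of PSMG4, had 1173, 1231 and 1286 counts in siRNF40, 552, 820.1 and 658 in siTG2, and 914, 1005 and 865 in siControl. It rose by 0.41 in siRNF40 (SE 0.12, adjusted p = 0.0082) and fell by 0.47 in siTG2 (SE 0.12, adjusted p = 0.0047), with 3 separate groups. PSMG1 fell by 0.43 in siTG2 (SE 0.088, adjusted p = 0.0011) and PSMG2, which pairs with PSMG1, had -0.02 (95% interval -0.24 to 0.21).

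Among the base chaperones PSMD5, PSMD9 and PSMD10, 1 was called lower in siRNF40 and none was called in siTG2. Of all tested genes, 23.6% were lower in siRNF40, and 18.5% were lower and 12.8% higher in siTG2. PSMD10 (gankyrin) had 1065, 1283 and 1216 counts in siRNF40, 1749.5, 1529 and 1579 in siTG2, and 1797, 2048 and 1864 in siControl. The siRNF40 libraries were below all others, a fall of 0.68 (SE 0.089, adjusted p = 4.1e-06), and the siTG2 libraries lay between, at -0.23 (adjusted p = 0.053), which passed the threshold in 7 of 18 alternatives, among them without siTG2 replicate 1 (-0.29, adjusted p = 0.035). PSMD5 had 2601, 2675 and 2436 counts in siRNF40, 2794, 2732 and 2921 in siTG2, and 2542, 2435 and 2545 in siControl. All its siTG2 libraries lay above the controls, and the log2 fold change of 0.17 (adjusted p = 0.069) passed in 6 of 18 alternatives, among them equal totals (0.31, adjusted p = 0.0015) and without siRNF40 replicate 3 (0.17, 0.042). PSMD9 was called in no contrast, with -0.05 in siRNF40 (adjusted p = 0.84) and -0.11 in siTG2 (adjusted p = 0.66).

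The alternative regulators include PSMF1 (PI31), which binds the 20S and inhibits it in the test tube. PSMF1 had 3903, 4062 and 4542 counts in siRNF40, 2514, 2815 and 2725 in siTG2, and 2721, 2790.2 and 2647 in siControl. It was the second-largest rise in siRNF40 (0.61, SE 0.073, adjusted p = 1.3e-06), and siTG2 overlapped the controls (-0.02, 95% interval -0.17 to 0.13). PSME1 and PSME2 form the interferon-inducible activator PA28. PSME2 had 1762, 1561 and 1687 counts in siRNF40, 2331, 2532 and 2472 in siTG2, and 2453, 2405 and 2192 in siControl. Its siRNF40 libraries were below all others, a fall of 0.49 (SE 0.076, adjusted p = 2.8e-05).

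PSME1 had 2519, 2247 and 2050.4 counts in siRNF40, 2039.7, 2885 and 2681 in siTG2, and 2103, 2219.8 and 1907 in siControl. All groups overlapped, with siTG2 replicate 1 among the lowest libraries and the other two siTG2 libraries the highest. Its log2 fold change in siTG2, 0.28, was not called (adjusted p = 0.061) but passed in 7 of 18 alternatives, among them without siTG2 replicate 1 (0.42, adjusted p = 0.0025), and the authors' deposited table calls PSME1 higher in siTG2, with a log2 fold change of 0.29 and an adjusted p of 0.045. PSME3, the nuclear PA28 gamma, had 4228, 4175 and 3987 counts in siRNF40, 4064, 4017 and 4148 in siTG2, and 3711, 3816 and 3964 in siControl. PSME4, the activator PA200, had 4681, 4834 and 4155 counts in siRNF40, 4859, 4567 and 5099.96 in siTG2, and 4943, 5002 and 5271 in siControl. For both, group means lay close together, and no contrast was called, with log2 fold changes between -0.16 and 0.11. PSME4 was called lower in siRNF40 without siRNF40 replicate 2 (-0.20, adjusted p = 0.037) and under equal totals (-0.19, 0.03), and lower in siRNF40 than in siTG2 under equal totals (-0.27, 0.0029) and quantile normalization (-0.18, 0.02). PSME3 was called higher in siTG2 under equal totals (0.23, adjusted p = 0.0067) and quantile normalization (0.25, 0.0031), higher in siRNF40 under quantile normalization (0.18, 0.018), and lower in siRNF40 than in siTG2 under equal totals (-0.16, 0.037).

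Summed over all 46 members, the normalized count was 150373 ± 476 in siRNF40, 122580 ± 5238 in siTG2 and 137919 ± 2824 in siControl (SD, n = 3 each), or 109.0% and 88.9% of siControl in siRNF40 and siTG2. The siRNF40 libraries all lay above the controls and the siTG2 libraries all below. The lowest was siTG2 replicate 1, at 84.6% of the siControl mean, against 91.9% and 90.1% for the other two. These sums are given as a description, without a test. By class the sum of the 19S scaffold and receptor genes was 119.8% of siControl in siRNF40 and 95.8% in siTG2, that of the 20S chaperones 118.1% and 83.3%, and that of the beta ring 111.5% and 81.2%. The lid was at 106.6% in siRNF40 and 81.7% in siTG2, the ATPases at 112.7% and 85.5%, and the alpha ring at 103.4% and 94.4%. The base chaperones were at 85.9% in siRNF40 and 100.1% in siTG2, the alternative regulators at 104.7% and 103.3%, and PSMB10 with PSMB11 at 79.9% and 118.3%. As a share of all reads in genes, which does not use the size factors, the members held 0.451% to 0.462% in siRNF40, 0.405% to 0.432% in siTG2 and 0.423% to 0.435% in siControl, so that by this share the siTG2 and siControl libraries overlap.

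**Figure D5:**
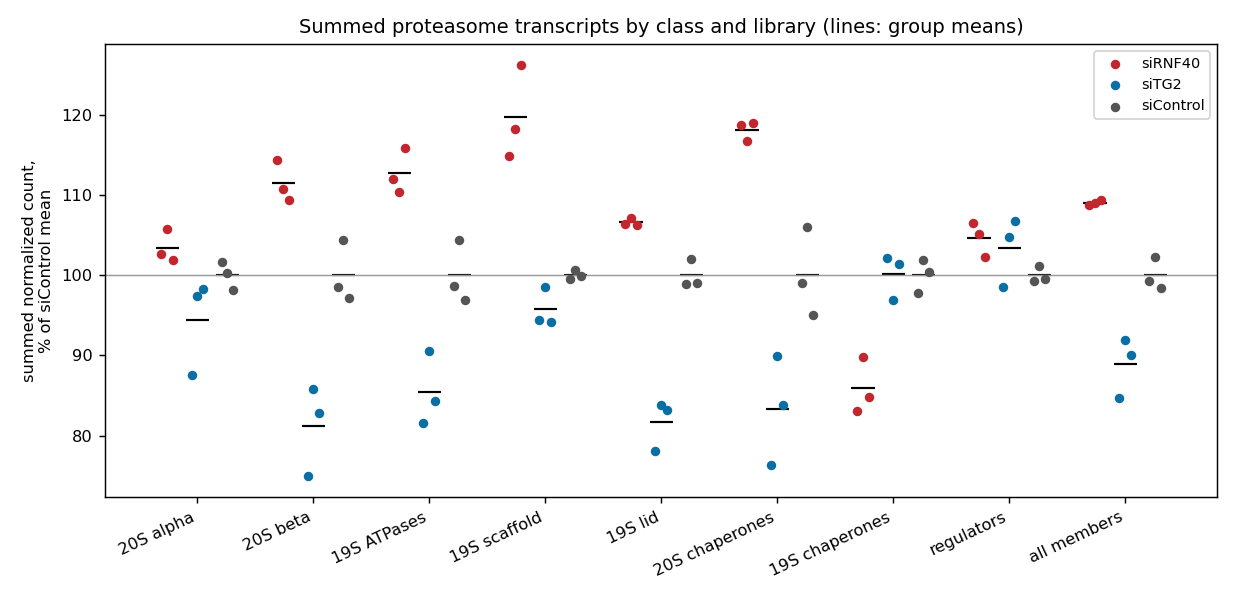
Summed normalized count of each class of proteasome genes in each library, as percent of the siControl mean (vertical axis, not from 0), with a line at each group mean. The siRNF40 libraries lie above 100% for most classes and the siTG2 libraries below, while the base assembly chaperones are low in siRNF40.

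Promoters are shown for the members with the largest changes, since genes of the complex are known to share promoter elements. RefSeq windows of 300 bases on build GRCh38.p14, from 250 before to 50 after a gene's start, were found for 40 of 46 members (48 windows, as some genes have several starts). There was none for PSMA7, PSMB1, PSMB6, PSMB7, PSMD4 and PSMG3. The windows below run 5′ to 3′ along the gene, and capitals mark a match, on either strand, to TGACNNNGC, the core of the antioxidant response element that NFE2L1 and NFE2L2 bind with small MAF proteins, or to CCGGAAG, an ETS core.
PSMD3, largest difference between the knockdowns, chr17:39980557-39980856, plus strand: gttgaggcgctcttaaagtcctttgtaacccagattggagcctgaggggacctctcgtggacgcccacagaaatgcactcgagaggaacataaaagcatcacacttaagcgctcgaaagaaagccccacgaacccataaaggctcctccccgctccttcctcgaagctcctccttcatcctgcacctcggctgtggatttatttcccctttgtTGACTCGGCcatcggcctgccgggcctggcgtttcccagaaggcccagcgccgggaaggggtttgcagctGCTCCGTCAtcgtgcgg
PSMG4, largest rise in siRNF40, chr6:3258697-3258996, plus strand: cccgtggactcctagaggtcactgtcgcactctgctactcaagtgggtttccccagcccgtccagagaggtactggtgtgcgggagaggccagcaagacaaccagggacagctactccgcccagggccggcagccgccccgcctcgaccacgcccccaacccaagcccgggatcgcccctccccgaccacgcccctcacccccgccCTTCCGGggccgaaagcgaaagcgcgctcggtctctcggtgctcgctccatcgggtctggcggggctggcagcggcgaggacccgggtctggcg
PSMA5, largest fall in siRNF40, chr1:109426399-109426698, minus strand: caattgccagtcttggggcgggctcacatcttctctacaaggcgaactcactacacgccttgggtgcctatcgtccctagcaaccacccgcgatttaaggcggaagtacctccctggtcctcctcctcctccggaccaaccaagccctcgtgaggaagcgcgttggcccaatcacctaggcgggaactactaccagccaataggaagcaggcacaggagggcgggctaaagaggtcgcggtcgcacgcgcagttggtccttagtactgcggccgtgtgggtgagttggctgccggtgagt
PSMB2, largest fall in siTG2, chr1:35641477-35641776, minus strand: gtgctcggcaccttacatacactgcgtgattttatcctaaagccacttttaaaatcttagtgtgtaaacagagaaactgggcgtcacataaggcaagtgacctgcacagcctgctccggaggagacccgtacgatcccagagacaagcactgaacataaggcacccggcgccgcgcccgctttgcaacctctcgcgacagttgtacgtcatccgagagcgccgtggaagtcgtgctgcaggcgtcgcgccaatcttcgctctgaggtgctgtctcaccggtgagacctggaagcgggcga

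The PSMD3 window holds 2 matches to TGACNNNGC, 1 on each strand, PSMG4 holds 1 to the ETS core, and the PSMA5 and PSMB2 windows hold neither. Over both strands, TGACNNNGC was found in 29.2% of the members' windows, against 13.3% of all 35116 windows and 13.8% of 22198 windows of protein-coding genes. CCGGAAG was in 31.2% of the members' windows, against 10.3% and 12.8%, CCAAT in 39.6% against 34.6% and 34.7%, and the GC box GGGCGG in 66.7% against 45.0% and 56.3%. None of the 4 motifs contains another. Among tested members with a window, TGACNNNGC was present in 14, of which 2 were called higher and 3 lower in siRNF40 and 3 lower in siTG2. Of the 24 without it, 9 were higher and 3 lower in siRNF40, and 8 were lower in siTG2. For all tested genes these shares are 21.7%, 23.6% and 18.5%. With CCGGAAG, 6 of 14 were higher and 2 lower in siRNF40, and 4 lower in siTG2. Without CCGGAAG these counts were 5, 4 and 7 of 24. For CCAAT they were 5, 3 and 7 of 18 with it, and 6, 3 and 4 of 20 without. For GGGCGG they were 6, 4 and 8 of 26 with it, and 5, 2 and 3 of 12 without. These matches are letters in a window and were not tested against the changes.

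Genes that work beside the PSM members were taken from lists. Of 10 other proteasome components, 3 were higher and 3 lower in siRNF40, and 1 was higher and 5 lower in siTG2. Over all tested genes 21.7% were higher and 23.6% lower in siRNF40, and 12.8% and 18.5% in siTG2, which is the background for this list and those that follow, and the siRNF40 counts of this list are near it. USP14, a deubiquitinase bound to the base, fell by 0.68 in siRNF40 (SE 0.074, adjusted p = 4.6e-07) and by 0.37 in siTG2 (adjusted p = 0.00068). UCHL5, another such deubiquitinase, fell by 0.35 in siRNF40 (adjusted p = 0.001) and by 0.52 in siTG2 (adjusted p = 4.6e-05). ADRM1, the ubiquitin receptor that holds UCHL5 on the proteasome, rose by 0.37 in siRNF40 (adjusted p = 0.0016) and fell by 0.44 in siTG2 (adjusted p = 0.00065). POMP, the maturation factor of the 20S, rose by 0.33 in siRNF40 (adjusted p = 0.0098) and had -0.10 in siTG2 (adjusted p = 0.51).

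Of 10 genes of proteasome gene transcription and its control, 3 were higher and 4 lower in siRNF40, and 7 were lower in siTG2 with none higher, against 21.7% and 23.6% of all tested genes in siRNF40 and 18.5% lower and 12.8% higher in siTG2. NFE2L1 averaged 24607 ± 792 counts in siRNF40, 19256 ± 290.1 in siTG2 and 24235 ± 483 in siControl (SD, n = 3 each). It had 0.02 in siRNF40 (95% interval -0.09 to 0.14) and fell by 0.33 in siTG2 (SE 0.054, adjusted p = 0.00012), a gene named for siTG2 after its values were seen. MAFK and MAFF, small MAF partners, rose by 0.81 and 0.66 in siRNF40 (adjusted p = 9e-06 and 2.7e-07) and fell by 0.88 and 0.69 in siTG2 (adjusted p = 8.1e-06 and 3.6e-07). NGLY1 and SEL1L, which act on the NFE2L1 precursor at the endoplasmic reticulum, fell by 0.43 and 0.53 in siRNF40, and DDI2, the protease that activates it, fell by 0.28 in siRNF40 (adjusted p = 0.0056) and by 0.38 in siTG2 (adjusted p = 0.00078). SEL1L also fell in siTG2, by 0.29 (adjusted p = 0.018), and NGLY1 had -0.06 there (adjusted p = 0.65). The siRNF40 value of DDI2 and the siTG2 value of SEL1L were added after they were seen. SYVN1, the ligase of that route, fell by 0.77 in siTG2 (adjusted p = 1.1e-06) and had -0.08 in siRNF40 (adjusted p = 0.48).

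Of 11 genes for p97 and the ubiquitin shuttles, which bring substrates to the proteasome, 1 was higher and 4 lower in siRNF40, and 6 were lower in siTG2 with none higher, against the same background of 21.7% and 23.6% in siRNF40 and of 18.5% lower and 12.8% higher in siTG2. VCP (p97) had 0.03 in siRNF40 (adjusted p = 0.75) and fell by 0.26 in siTG2 (adjusted p = 0.0049). UBQLN4 rose by 0.34 in siRNF40 (adjusted p = 0.00045). Of 6 ubiquitin precursor and E1 enzyme genes, 3 were higher and 1 lower in siRNF40, and 1 was higher and 3 lower in siTG2, against that same background. UBA1, the main E1 enzyme, rose by 0.51 in siRNF40 (adjusted p = 7.8e-07), and UBB, a ubiquitin precursor, rose by 0.30 in siTG2 (adjusted p = 0.037).

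Counting can limit some values. The table lists 30 PSM pseudogenes, of which 4 reached a mean of 10, and their means summed to 0.083% of the members' sum, with PSMC1P1 the highest at 53.3. Members whose locus overlaps a well-expressed gene on the opposite strand include PSMC5 (FTSJ3), PSME3 (BECN1), PSMD5 (PSMD5-AS1) and PSMG3 (PSMG3-AS1), and PSMD2 overlaps EIF2B5 on the same strand. The genomic span of members called higher in siRNF40 had a median of 13.1 kb, that of members called lower 25.1 kb and that of uncalled members 19.4 kb, with overlapping ranges of 2.35 to 72.0, 4.21 to 116 and 2.59 to 150 kb. In the authors' deposited tables the same 16 members were higher and the same 7 lower in siRNF40, and the same 14 were lower in siTG2, with PSME1 the added higher call.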

How the data were processed

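The values are a signal, deposited by the authors after each library's read counts were scaled by its DESeq2 size factor. The submitters' processing notes name Trim Galore 0.4.1, STAR 2.7.0, HTSeq 0.12.4 and DESeq2, and both hg19 and hg38. Gene coordinates in the deposited tables are those of hg19. All values came out as whole reads within 0.001. The authors' deposited tables of each knockdown against control also give log2 fold changes, p-values and a test statistic (a score, not used here). Whether libraries of a group came from separate cultures is not stated, so p-values measure only the spread between these libraries, which may be technical.

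Values were tested as log2(value + 1) with limma 3.58.1 (R 4.3.3, intensity trend) on 9 libraries with 3 group means, for genes with a mean of at least 10, with Benjamini-Hochberg adjustment over all genes tested and calls at 0.05. Fold changes are on that log2(value + 1) scale. Levels per kilobase divide by transcript length. The fit was also run on simulated data, whose outcome is not given here and is no support for the calls. Alternatives were another pseudocount, other filters, equal totals, quantile normalization, a replicate block, edgeR 4.0.16, DESeq2 1.42.0, only the 6 libraries compared and leaving out each library. Members, gene lists and tests were chosen with earlier results of these data known. Values of every library are given for the 5 largest called rises and falls of each contrast, the catalytic and inducible beta genes, the alternative regulators and members called in opposite directions. Of each other list, up to 4 called genes with the largest changes and up to 2 uncalled genes are named; some genes of these lists are not reported here.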

Additional observations from a re-analysis of the deposited data

Results flagged for a closer look

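In 6 members the knockdown effects had opposite directions against siControl, and the difference between siRNF40 and siTG2 passed the test (limma, adjusted p under 0.05). These members were chosen by calls in opposite directions, so passing this test follows from the choice and is no further support. How many of all tested genes share the pattern was not counted. The log2 difference of siRNF40 minus siTG2 was 0.52 for PSMA7, 0.85 for PSMB4, 0.67 for PSMB7, 0.70 for PSMD13, 0.97 for PSMD3 and 0.88 for PSMG3. All 6 differences remained called under the 18 alternatives.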

How the results depend on the processing

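Each contrast was recomputed under 18 alternatives. No called member changed sign. In siRNF40 against siControl, 15 of 16 higher and 6 of 7 lower calls held under all of them, in siTG2 against siControl 8 of 14 lower calls, and in siRNF40 against siTG2 17 of 27 higher and 4 of 6 lower calls. The siTG2 count of higher calls, 0 in limma on all 9 libraries, was 5 under equal totals, 4 under quantile normalization, and 2 each with only the 6 libraries compared, edgeR and DESeq2, and 0 to 2 with 1 library left out. The siTG2 count of lower calls, 14, was 9 under equal totals, 8 under quantile normalization and 11 to 18 with 1 library left out. Lower calls of siRNF40 against siTG2 numbered 6, and 13 under equal totals. Over all tested genes, equal totals gave 21.9% higher and 10.7% lower calls in siTG2 against siControl. In siRNF40 against siTG2 it gave 35.8% lower calls. The background share also depends on the filter. Among genes with a mean of at least 50, 26.9% were higher in siRNF40 and 24.5% lower in siTG2, each against siControl. In the direct test 33.2% of them were higher. The members called in these 3 ways then numbered 17, 16 and 27. Equal totals moved the median of all genes from -0.01 to 0.13 in siTG2 against siControl. In siRNF40 against siControl that median moved from 0.02 to -0.02. The cause of these and the other changes was not tested. Same-numbered libraries did not deviate together (correlations of -0.075 to 0.081). Such correlations cannot tell whether the numbers pair the samples, which the labels do not state. A fit with the replicate block gave 16 higher and 7 lower calls in siRNF40, 0 and 14 in siTG2, and 27 and 6 in the direct test, as without it. PSMA2, PSMB10 and PSMD9 had low counts and wide intervals, and each overlaps another gene on the same strand. Whether depth or the counting of such overlaps limits them was not tested.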
